A study of Homo sapiens with 18 samples.

Results

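At 648 distal regions of the chromatin of Raji cells, an established Burkitt lymphoma line of B-cell origin, the GFP low cells were at least 2-fold less accessible than the GFP high cells at 24, 48 and 72 h alike. The regions were chosen by their measured accessibility at the 3 times, from a table of 71318 peaks of open chromatin, each 501 bp wide, on hg38. The counts of the 3 columns for a GFP level and time were summed, scaled to the total of counts in peaks of that library (CPM) and compared as log2((GFP low + 0.2) / (GFP high + 0.2)). A region was kept when this log2 difference was -1 or less at each of the 3 times, its mean count per column was at least 30 and its centre lay more than 1 kb from both ends of each protein-coding gene of the RefSeq annotation of GRCh38. Of the 57591 peaks away from gene ends, 50394 reached the count minimum. Of those, 648 (1.29%, 95% Wilson interval 1.19 to 1.39%, which treats peaks as independent) met the whole rule. With loess scaling on abundance in place of library totals, 346 peaks met it. Another 174 distal peaks met the fold rule but not the count minimum. The GFP low against GFP high differences of the 648 peaks are therefore a description, since the rule used them, and carry no test.

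The assay was Omni-ATAC-seq, whose transposase inserts adapters where DNA is open. The groups were GFP low cells at 24, 48 and 72 h and GFP high cells at the same times, with 3 replicates of each per the labels, all of 1 cell line and all with the genotype label Smarca4+/+. The series concerns degradation of SMARCA4 through an auxin-inducible degron, but the labels give neither what GFP reports nor an agent for single samples, so the groups are named by GFP level alone. In bulk samples, fewer cells with an open site and less opening per cell cannot be told apart.

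SMARCA4 (BRG1) is an ATPase of the BAF complex, which slides and evicts nucleosomes. BAF is best known for keeping enhancers open, the regulatory elements away from gene starts that bind cell-type factors and raise transcription of genes at a distance. In germinal centre B cells, from which Burkitt lymphoma arises, such elements are bound by lineage factors of the ETS, POU, E-protein and RUNX families, and the peaks described here are of that distal kind by position only.

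The sequence under a distal peak could be read only where a RefSeq transcript starts inside it, and 6 of the 648 peaks overlapped such a start window (250 bases before and 50 after the start), 0.926% against 3.83% of the distal peaks that reached the count minimum. In 4 of them the whole window lay inside the peak. Their 250 bases before the start are shown because they are the stretches of the less accessible DNA that the reference tables hold (RefSeq, GRCh38.p14, 5′ to 3′ on the strand of the transcript). Capitals mark matches, on either strand, to 8 motifs searched: AP-1 as TGANTCA, PU.1 as GAGGAAG, ETS as CCGGAAG, the octamer as ATGCAAAT, E-boxes as CAGCTG and CAGGTG, RUNX as TGTGGTT and the CCAAT box as CCAAT.
LOC105378719, an lncRNA, chr1:51622545-51622794, minus strand: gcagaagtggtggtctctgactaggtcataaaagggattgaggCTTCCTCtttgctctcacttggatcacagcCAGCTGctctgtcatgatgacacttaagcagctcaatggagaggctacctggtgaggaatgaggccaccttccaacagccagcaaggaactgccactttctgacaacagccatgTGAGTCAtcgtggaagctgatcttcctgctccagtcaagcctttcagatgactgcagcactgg
LOC124904434, an lncRNA, chr1:159889962-159890211, plus strand: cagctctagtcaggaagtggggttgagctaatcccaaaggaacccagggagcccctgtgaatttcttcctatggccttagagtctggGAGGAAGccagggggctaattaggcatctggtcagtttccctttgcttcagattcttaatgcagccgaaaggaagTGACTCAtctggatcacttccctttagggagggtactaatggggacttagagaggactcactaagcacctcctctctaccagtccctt
DSE, chr6:116369569-116369818, plus strand: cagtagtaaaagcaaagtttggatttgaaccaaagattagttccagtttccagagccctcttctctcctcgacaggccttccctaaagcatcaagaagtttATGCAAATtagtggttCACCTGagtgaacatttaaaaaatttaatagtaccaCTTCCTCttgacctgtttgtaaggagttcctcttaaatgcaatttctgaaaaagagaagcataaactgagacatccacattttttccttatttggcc
LOC105370485, an lncRNA, chr14:49976946-49977195, plus strand: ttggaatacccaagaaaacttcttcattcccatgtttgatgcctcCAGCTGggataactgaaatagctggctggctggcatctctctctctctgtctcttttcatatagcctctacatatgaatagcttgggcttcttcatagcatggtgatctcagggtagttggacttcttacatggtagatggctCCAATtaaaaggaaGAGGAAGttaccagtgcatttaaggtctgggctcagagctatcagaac

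Each of the 4 windows shown held the PU.1 letters, which 11.2% of all 35116 windows of this length in the table held. The windows of LOC105374933 and LOC105378250, which lay only partly inside their member peaks and are not shown, did not hold them. All windows include those outside distal peaks, so their shares are not a matched background for the windows shown. Among the windows shown, the AP-1 letters, in 6.57% of all windows, stood in those of LOC105378719 and LOC124904434. CAGCTG, in 14.0% of all windows, stood in those of LOC105378719 and LOC105370485. The DSE window held the octamer, present in 1.63% of all windows, and CAGGTG, present in 17.5%, and the LOC105370485 window held CCAAT, present in 32%. No match was found to the ETS letters, in 8.52% of all windows, or to the RUNX letters, in 3.65%. The PU.1 and ETS letters share the run GGAAG, and no pair of matches in these windows shared a base. The 4 windows had 51.6, 50.8, 37.6 and 44% G and C in the order shown, and 1, 1, 1 and 0 CpG, where the medians of all windows were 58% and 11 CpG. Of the windows not shown, that of LOC105374933 held the AP-1 letters and CCAAT, and that of LOC105378250 held none of the motifs searched. A match is a run of letters and says nothing of binding.

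The peak that holds the DSE window covers an internal start of the gene for dermatan sulphate epimerase, 75.2 kb from the nearer end of the gene. It had 7.16, 9.27 and 8.79 CPM in GFP low cells at 24, 48 and 72 h, against 24.7, 22.5 and 20.7 CPM in GFP high cells. The GFP low values were all below the GFP high values, as the rule requires at each time, and the log2 differences were -1.76, -1.26 and -1.22. The peak at LOC124904434, inside CFAP45, had 3.11, 2.49 and 2.65 CPM in GFP low cells, against 9.52, 7.66 and 7.33 CPM in GFP high cells. The peak at LOC105378719, inside OSBPL9, had the lowest levels of the 4, at 1.99, 2.17 and 2.35 CPM in GFP low cells, against 4.98, 4.75 and 6.08 CPM in GFP high cells. At LOC105370485, with no protein-coding gene within 50 kb, the values were 3.58, 3.44 and 3.26 CPM in GFP low cells, against 9.78, 9.42 and 6.73 CPM in GFP high cells. The DSE peak was the most open of these regions in each of the 6 libraries.

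The deposited columns held 7106939 to 11171849 counts each. Between columns of a GFP level and time the variance was, as a mean over peaks, 1.78 to 1.81 times counting noise (18 pairs of columns). Whether this factor varies with count level was not tested. The 3 columns of a GFP level and time were counted as 1 library, which gave 6 libraries of 22908652 to 29790483 counts. Column headers carry D and V numbers, and D was read as a day number, so that D1, D2 and D3 stand for 24, 48 and 72 h. Nothing in the labels ties the libraries to separate cultures, so the spread between them may be technical. Among B-cell markers, 6 of 8 genes had a peak within 1 kb of an end (MS4A1, CD79A, CD79B, CD22, PAX5 and EBF1), with a summed level of 281 to 299 CPM in the GFP low and 276 to 286 CPM in the GFP high libraries. For T-cell markers this was 5 of 8 genes, with 85.0 to 95.4 CPM in the GFP low and 109 to 113 CPM in the GFP high libraries and no peak at CD3G, CD5 or LCK. Myeloid markers had such a peak at 2 of 8 genes, with 23.4 to 34.4 CPM in the GFP low and 26.8 to 32 CPM in the GFP high libraries. Epithelial and stromal markers had one at 3 of 8 genes, with 54.7 to 62.1 CPM in the GFP low and 54.3 to 57.9 CPM in the GFP high libraries. The part of the T-cell marker levels, which moved with GFP level, in the results below was not tested.

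Among all peaks the 648 were sites of middling openness in GFP high cells and stood low in GFP low cells, a placing that the rule partly sets. Their median level was 3.40, 3.62 and 3.52 CPM in GFP low cells at 24, 48 and 72 h, against 9.71, 8.66 and 8.65 CPM in GFP high cells. The other distal peaks that reached the count minimum had medians of 6.87, 6.92 and 6.75 CPM in GFP low cells. In GFP high cells their medians were 7.81, 7.46 and 7.52 CPM, below those of the members. The median member thus stood at the 16.4th, 18th and 18.4th percentile of all 71318 peaks in GFP low cells, against the 57.5th, 53.7th and 53.5th percentile in GFP high cells. Together the 648 peaks took 0.264, 0.275 and 0.272% of the counts in GFP low cells, against 0.740, 0.671 and 0.667% in GFP high cells. The GFP low level was 40.5% of the GFP high level at the median member, on the scale of CPM plus 0.2, with a range of 23.1 to 49.2%.

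**Figure D1:**
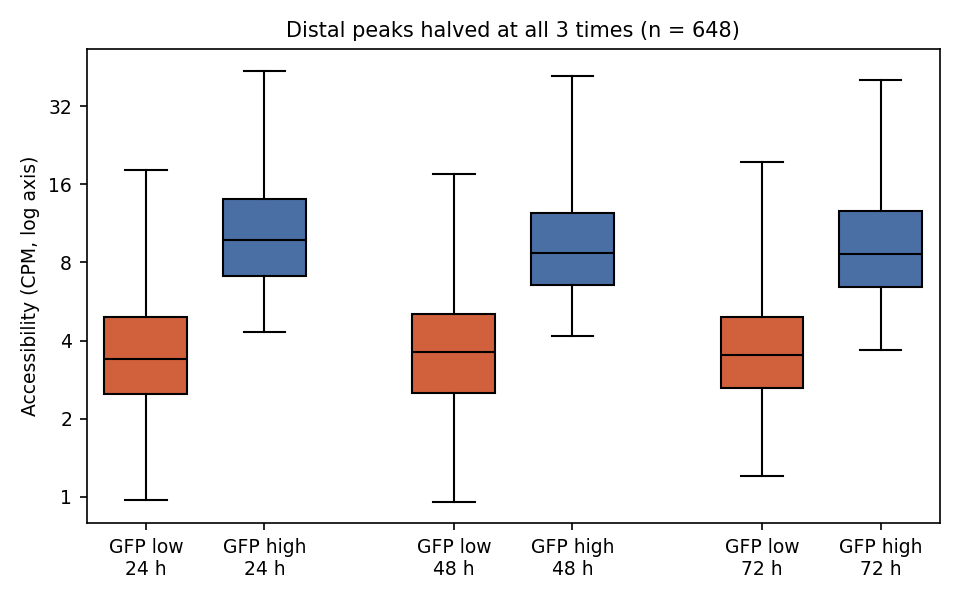
Accessibility (CPM, log axis) of the 648 distal peaks in the 6 libraries, GFP low left of GFP high at each time. Boxes are quartiles with the median and whiskers reach the lowest and highest peak; the GFP low medians lie at 3.40 to 3.62 CPM and the GFP high medians at 8.65 to 9.71 CPM.

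The log2 difference of the members had its lowest median at 24 h, -1.43, and medians of -1.23 at both 48 and 72 h. The other 49746 distal peaks that reached the count minimum had medians of -0.11, -0.05 and -0.09. At 24 h 8.45% of all peaks were at least 2-fold lower in GFP low cells, at 48 h 3.47% and at 72 h 3.84%. Of the distal peaks that were at least 2-fold lower at 24 h, 4707 in all, 13.8% were members. The members made up 36.3% of the 1786 such peaks at 48 h and 31.0% of the 2091 at 72 h. A further 3908 distal peaks passed the fold at exactly 1 of the times and 1366 at exactly 2, so most distal peaks past the fold at 24 h were not past it later.

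**Figure D2:**
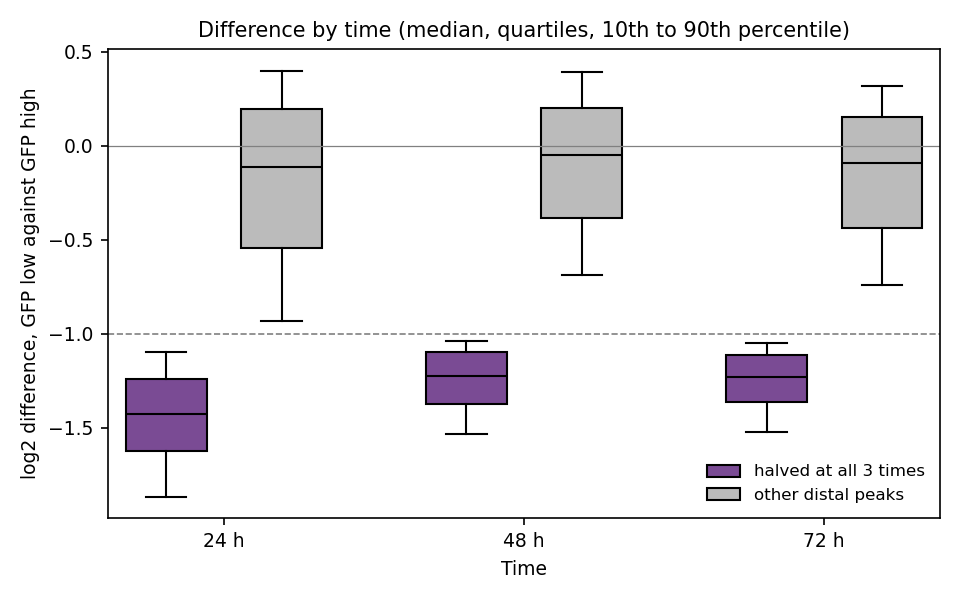
log2 difference of GFP low against GFP high cells at 24, 48 and 72 h for the 648 members and the 49746 other distal peaks. Boxes are quartiles with the median, whiskers reach the 10th and 90th percentile and the dashed line is the threshold of the rule; the member medians are -1.43, -1.23 and -1.23.

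Counting intervals (95%, with the counting variance at every peak multiplied by 1.80, the mean found between columns) cover counting error only. They are drawn around the values the rule used, so they describe precision and test nothing. Their upper limit lay below -1 at all 3 times for 32 of the 648 members. The V0, V1 and V2 columns are parts of the sums that the rule used. In each of them alone, 335, 337 and 351 members were at -1 or less at all times, and 113 were so in all 3 V numbers. Over the times together, edgeR's quasi-likelihood test called 25.4% of all 71318 peaks lower in GFP low cells at a Benjamini-Hochberg adjusted p under 0.05, and 648 of the 648 members, a count that the rule itself brings about. Most members were only moderately past the threshold, with a mean log2 difference of -1.5 or less in 86 (13.3%) and of -2 or less in 2.

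The 8 members with the lowest mean log2 difference included a region on chromosome 17, chr17:72190161-72190661, with no protein-coding gene within 50 kb. It had 2.50, 3.52 and 4.60 CPM in GFP low cells at 24, 48 and 72 h, against 15.6, 14.5 and 16.7 CPM in GFP high cells. The log2 difference was -2.12 ± 0.39 (mean and SD over the 3 times, n = 3 pairs of libraries, so the SD includes change with time), with the GFP low level highest at 72 h. At chr4:108247520-108248020, also without a gene nearby, GFP low cells had 2.10, 2.70 and 5.07 CPM, against 13.1, 11.3 and 13.8 CPM in GFP high cells (-1.98 ± 0.56). A region inside LINC01033, chr5:54398080-54398580, had 1.52, 3.27 and 2.75 CPM in GFP low cells, against 10.2, 8.81 and 8.75 CPM in GFP high cells (-1.86 ± 0.65). In these regions the GFP low value at 24 h was the lowest of the 6 libraries. The region chr8:142041670-142042170 had 1.70, 1.81 and 2.22 CPM in GFP low cells, against 9.25, 8.37 and 7.94 CPM in GFP high cells (-2.05 ± 0.28), and its GFP high level was also lowest at 72 h.

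Others of these 8 peaks lay in or near known genes. The peak inside EPHB1, a receptor tyrosine kinase for ephrins, lies at chr3:135066948-135067448, 193 kb from an end of the gene. It had 4.52, 7.0 and 4.73 CPM in GFP low cells, against 22.8, 17.3 and 20.8 CPM in GFP high cells. The 48 h pair of libraries differed least, at -1.28 (counting interval -1.60 to -0.97), against -2.29 at 24 h and -2.09 at 72 h. Inside PIK3CG, the gene of the gamma isoform of phosphoinositide 3-kinase, the peak at chr7:106883514-106884014 had 3.29, 2.88 and 3.86 CPM in GFP low cells, against 14.0, 13.3 and 10.8 CPM in GFP high cells. Its difference was smallest at 72 h, at -1.44 (-1.86 to -1.01), where the GFP high level was lowest. The peak 43.6 kb outside DHCR7, whose enzyme ends cholesterol synthesis, at chr11:71383395-71383895, was weak throughout, with 1.27, 1.35 and 1.38 CPM in GFP low cells, against 5.41, 5.80 and 6.4 CPM in GFP high cells. Of the 8 it had the smallest spread over the times, at -1.99 ± 0.07. Its counting intervals were far wider than that, from -2.66 to -1.21 at 24 h, so a steady ratio was not shown. With 1 CPM added its mean log2 difference was -1.56.

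Of the 6 members most open in GFP high cells, 4 lay in or near a gene. The peak 21.0 kb outside NID1, which codes for the basement membrane protein nidogen-1, at chr1:235954630-235955130, had 15.4, 17.6 and 19.4 CPM in GFP low cells, against 43.7, 41.8 and 40.5 CPM in GFP high cells. The levels thus drew closer with time, and the log2 differences were -1.49, -1.24 and -1.05. The peak inside MTAP, the gene for the methionine salvage enzyme methylthioadenosine phosphorylase, at chr9:21833016-21833516, had 18.1, 14.6 and 16.3 CPM in GFP low cells, against 37.3, 34.8 and 37.8 CPM in GFP high cells. Near STAU2, which codes for a double-stranded RNA-binding protein, the peak at chr8:73755930-73756430 had 14.7, 14.7 and 13.5 CPM in GFP low cells, against 39.4, 31.7 and 32.2 CPM in GFP high cells. At each of these peaks the lowest GFP high value stood above the highest GFP low value, which the 2-fold rule at each time makes likely. The peak 9.65 kb outside MOXD1, at chr6:132286159-132286659, had 16.8, 13.5 and 14.2 CPM in GFP low cells, against 34.9, 32.2 and 32.2 CPM in GFP high cells. The regions chr8:83317779-83318279 and chr1:101407596-101408096, without a gene within 50 kb, had 12.4 to 16.4 and 13.5 to 17.6 CPM in GFP low cells, against 37.6 to 39.7 and 31.0 to 38.8 CPM in GFP high cells.

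The range of the log2 difference over the 3 times had a median of 0.33 and ran from 0.0085 to 1.49. The other distal peaks had a median range of 0.38. The differences at 24 and 72 h lay apart beyond their counting interval in 62 members (9.57%), so for most members a change between these times was not resolved. Among the smallest ranges, the peak inside TMEM163, the gene of a zinc transport protein, at chr2:134586495-134586995, had 3.73, 3.80 and 3.16 CPM in GFP low cells, against 8.12, 8.13 and 6.89 CPM in GFP high cells. The peak 35.8 kb outside GCLC, which codes for the catalytic subunit of the first enzyme of glutathione synthesis, at chr6:53461252-53461752, had 5.68, 5.11 and 4.60 CPM in GFP low cells, against 11.8, 10.6 and 9.60 CPM in GFP high cells. In these peaks the log2 differences stayed between -1.08 and -1.02. Their counting intervals were far wider than that, from -1.55 to -0.62 at 24 h for TMEM163, so a steady ratio was not shown. At the other end, chr10:37549007-37549507 had 1.19, 2.73 and 2.38 CPM in GFP low cells, against 8.34, 6.2 and 5.96 CPM in GFP high cells. Its log2 difference was -2.61 (-3.33 to -1.90) at 24 h and -1.25 (-1.80 to -0.71) at 72 h. It was named for this range.

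Some members lay well past the threshold at all times, such as chr17:72190161-72190661, whose smallest difference was -1.81. Others lay close to the threshold. Just inside it, the region chr5:124453585-124454085, with no protein-coding gene within 50 kb, had 9.04, 10.9 and 8.43 CPM in GFP low cells, against 22.3, 23.9 and 17.1 CPM in GFP high cells, with -1.0 at 72 h. Just outside it, the peak inside XXYLT1, a xylosyltransferase gene, had 2.75, 3.09 and 4.2 CPM in GFP low cells, against 7.16, 7.25 and 8.59 CPM in GFP high cells, with a mean log2 difference of -1.17 ± 0.16.

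A member was assigned to the protein-coding gene that contains its centre, or else to the nearest within 50 kb. The 648 peaks lay in or near 416 genes, of 11225 with a distal peak, and 377 of those had 1 member, 35 had 2 and 4 had 3. SH3BP5, whose product binds the B-cell kinase BTK, had 3 members among 9 distal peaks, 1 inside the gene and a pair 3.86 and 4.37 kb outside it. The most open of them, chr3:15345500-15346000, had 7.60, 8.98 and 9.16 CPM in GFP low cells, against 18.4, 20.8 and 21.5 CPM in GFP high cells. The pair stands 10 bp apart, so its members are not separate observations of the region. The other 6 distal peaks of SH3BP5 had a median mean log2 difference of -0.29, with 3 of them below 0.

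NAV2, which codes for neuron navigator 2, had 3 members inside the gene among 19 distal peaks. The members lay within 41.1 kb, chr11:19938788-19979864, with mean log2 differences of -1.57 to -1.46, whereas the other 16 distal peaks of the gene had a median of 0.06. MOB3B, a gene of the MOB kinase activator family, had 3 members among 15. Its most open one, chr9:27377791-27378291, had 13.6, 14.1 and 11.7 CPM in GFP low cells, against 33.0, 31.6 and 27.8 CPM in GFP high cells. Of the other 12 distal peaks of MOB3B, 10 were below 0, with a median of -0.89, so the lower accessibility was spread along this gene. TG, which codes for thyroglobulin, had 3 members among the 12 distal peaks assigned to it, and 8 of the other 9 were below 0, with a median of -0.87. Another member, chr8:133043077-133043577 (-1.60), lies inside both TG and the overlapping gene SLA and was assigned to SLA. The TG members chr8:133016463-133016963 and chr8:133017127-133017627 stand under 1 kb apart, so they are not separate observations of the region. BTBD9, the gene of a BTB-domain protein, had 2 members among 4 distal peaks, at -1.67 ± 0.30 and -1.19 ± 0.17. The peaks at the ends of MOB3B and BTBD9 were not lower in step with these. The MOB3B end peak had 14.4, 16.1 and 13.7 CPM in GFP low cells, against 12.8, 12.5 and 13.5 CPM in GFP high cells, and the 2 end peaks of BTBD9 had mean log2 differences of 0.11 and 0.15.

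In pathway and cell type lists, 0 to 1.33% of the distal peaks were members, beside 1.29% of all distal peaks. The lists with a member, at 0.87 to 1.33%, were near that share. Of the distal peaks of B-cell receptor signalling genes, 3 of 226 (1.33%) were members, and the median mean log2 difference of all 226 was -0.21, beside -0.07 over all 50394 distal peaks. The medians of T-cell markers (-0.27), plasma cell genes (-0.25), adhesion genes (-0.21) and memory B cell genes (-0.20) were alike or lower, as was that of the 7 peaks of myeloid markers (-0.32). Besides PIK3CG these were DAPP1, which codes for a phosphoinositide-binding adaptor of B cells, and PRKCB, a protein kinase C that acts below the B-cell receptor. The peak inside DAPP1, chr4:99847283-99847783, had 2.93, 2.45 and 2.72 CPM in GFP low cells, against 8.25, 8.07 and 8.43 CPM in GFP high cells, with a mean log2 difference of -1.55 ± 0.11. The peak 28.8 kb outside PRKCB, chr16:23806952-23807452, had 2.50, 1.78 and 2.11 CPM in GFP low cells, against 5.46, 4.41 and 5.31 CPM in GFP high cells.

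Among germinal centre dark zone genes 1 of 115 distal peaks was a member, 16.8 kb outside MYBL1, a MYB-family factor of dividing germinal centre cells. It had 5.17, 5.22 and 6.71 CPM in GFP low cells, against 14.4, 14.8 and 17.0 CPM in GFP high cells. Of the memory B cell list 1 of 96 was a member, 49.8 kb outside TLE3, a Groucho-family corepressor, and of adhesion and migration genes 1 of 109, inside DOCK8, an exchange factor for the GTPase CDC42. The TLE3 peak had 2.13, 2.56 and 3.05 CPM in GFP low cells, against 6.50, 6.85 and 7.17 CPM in GFP high cells. The DOCK8 peak, chr9:297402-297902, had 6.73, 5.11 and 4.30 CPM in GFP low cells, against 19.1, 12.4 and 12.2 CPM in GFP high cells, so both GFP levels were highest at 24 h. BAF subunit genes had 1 member of 100 distal peaks, 34.2 kb outside ARID1B, with a mean log2 difference of -1.14 ± 0.13. No member was assigned to the B-cell identity factors (286 distal peaks), to light zone and CD40 genes (78) or to plasma cell genes (40). The same held for T-cell (37), myeloid (7) and epithelial and stromal markers (22), cell cycle genes (20) and housekeeping genes (44). In lists of 7 to 44 distal peaks, 0 members says little beside the 1.29% of all distal peaks.

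By position, 318 of the 648 peaks (49.1%) lay inside a protein-coding gene, against 54.1% of all distal peaks that reached the count minimum. A further 141 (21.8%, against 26.3%) lay outside with a gene within 50 kb, and 189 (29.2%, against 19.6%) had no gene within 50 kb. Inside lncRNA genes lay 103 (15.9%, against 15.2%), and within 1 kb of an lncRNA gene end 16 (2.47%, against 5.27%). The share of distal peaks that were members went up with distance from the nearest gene end, from 0.547% at 1 to 5 kb over 1.08% at 5 to 20 kb, 1.29% at 20 to 50 kb and 1.66% at 50 to 200 kb to 1.95% beyond 200 kb. The median distance was 49.2 kb for members and 27.4 kb for the other distal peaks. The share also varied with openness in GFP high cells, from 0.070% under 5 CPM, where few peaks can pass both the count minimum and the fold, to 1.78% at 5 to 10 CPM, 1.90% at 10 to 20 CPM and 0.715% above 20 CPM. Within 5 to 20 CPM the order by distance was the same, at 0.781, 1.54, 1.80, 2.38 and 2.82% from the nearest to the farthest class.

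**Figure D3:**
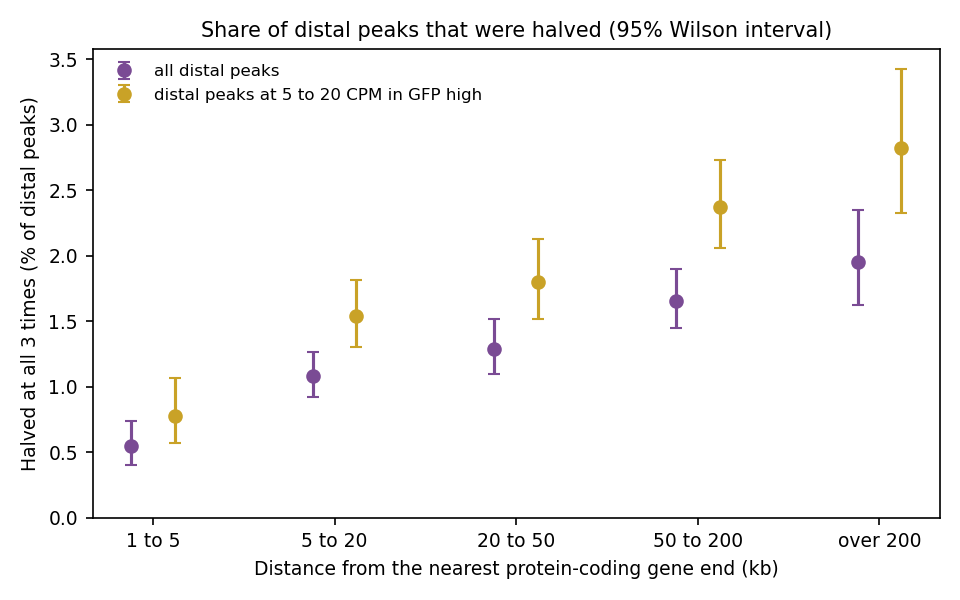
Share of distal peaks that were members (%) by distance from the nearest protein-coding gene end (kb), for all distal peaks and for those at 5 to 20 CPM in GFP high cells. Bars are 95% Wilson intervals, which treat peaks as independent; the shares run from 0.547 to 1.95% and from 0.781 to 2.82%.

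By chromosome, the share that were members was highest on chromosome 9, with 1.87% of its distal peaks (Wilson interval 1.38 to 2.54%), and chromosomes 15, 6 and 3 followed at 1.72, 1.71 and 1.64%. Chromosome 16 had 6 members (0.53%, 0.24 to 1.15%), chromosome 19 had 2 (0.214%), and chromosomes 21 and 22 had 1 each. The intervals of the highest 4 chromosomes, which treat peaks as independent, overlapped, so their order is not resolved.

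Members stood near each other more often than other distal peaks stood near members. Another member lay within 2 kb of 30 members (4.63%), within 10 kb of 45 (6.94%) and within 50 kb of 101 (15.6%). Of the other distal peaks 0.189, 0.842 and 3.61% had a member within those distances. The median distance from a member to the nearest other one was 892 kb, and 547 members stood alone at a spacing of 50 kb, beside 37 groups of 2 and 9 groups of 3. In 3 of the groups of 3 the members were the only distal peaks of the span that reached the count minimum. One of them, chr6:125569899-125598026, has no protein-coding gene within 50 kb. Its first peak had 4.45, 4.37 and 4.90 CPM in GFP low cells at 24, 48 and 72 h, against 19.0, 16.6 and 14.9 CPM in GFP high cells. The middle peak had 5.64, 6.92 and 4.50 CPM in GFP low cells, against 17.7, 17.2 and 11.6 CPM in GFP high cells. The last had 8.68, 9.23 and 10.7 CPM in GFP low cells, against 26.0, 24.7 and 23.7 CPM in GFP high cells. The mean log2 differences were -1.83, -1.41 and -1.36. The GFP levels did not overlap in any of the 3 peaks, which the 2-fold rule at each time makes likely. A second such group, chr11:71373642-71383895, holds the peak near DHCR7 with the mean log2 difference of -1.99, together with peaks at -1.46 and -1.21.

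Other distal peaks close to a member were lower as well, although the rule kept them out of the set. Within 10 kb of a member lay 419 such peaks, with a median mean log2 difference of -0.40, and 68.7% of them were below 0 and 13.1% at -1 or less. The median was -0.93 under 1 kb (39 peaks), -0.61 at 1 to 2 kb (55), -0.37 at 2 to 5 kb (122), -0.20 at 5 to 10 kb (203) and -0.22 at 10 to 50 kb (1378). Beyond that it was -0.12 at 50 to 200 kb, -0.07 at 200 to 1000 kb and -0.04 farther away. Peaks under 1 kb apart can share fragments. Gene-end peaks had medians of 0.10 (16 peaks) at 2 to 5 kb, 0.17 (29) at 5 to 10 kb and 0.15 (243) at 10 to 50 kb from a member. In the same order 31.25, 17.2 and 20.2% of them were below 0. Only 1 gene-end peak lay under 1 kb from a member, so the gradient of the distal peaks at the shortest distances has no counterpart here.

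**Figure D4:**
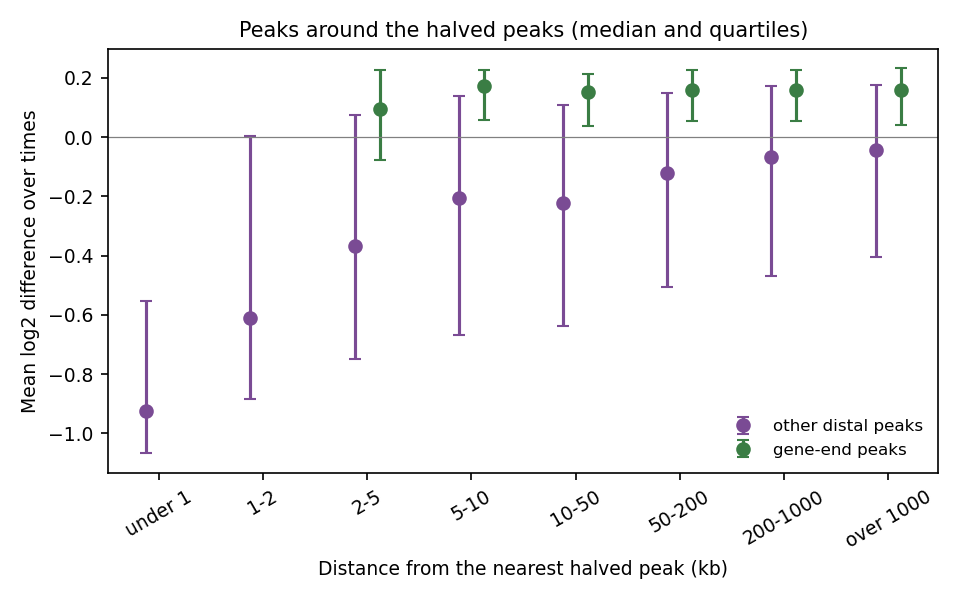
Mean log2 difference of GFP low against GFP high cells over the 3 times for peaks that are not members, by distance from the nearest member (kb). Points are medians and bars quartiles; other distal peaks run from -0.93 under 1 kb to -0.04 beyond 1000 kb, and gene-end peaks lie at 0.10 to 0.17 where at least 10 were found.

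At the ends of the genes that contain a member, the GFP levels differed about as at gene ends in general in the mean over times. Of 290 such genes, 140 had a gene-end peak that reached the count minimum, 221 peaks in all. Their median mean log2 difference was 0.15, beside 0.16 over all 13494 gene-end peaks, and at 24, 48 and 72 h it was 0.14, 0.11 and 0.15, beside 0.22, 0.07 and 0.15 over all gene-end peaks. With loess scaling the median mean log2 difference of the 221 was 0.055, with no loess value for all gene-end peaks to set beside it. edgeR called 13 of the 221 lower in GFP low cells (5.88%), beside 3.99% of all gene-end peaks, and 70 higher (31.7%), beside 34.9%. In 3 of the 140 genes an end peak had a mean log2 difference of -1 or less, and these, named after their values were seen, were MDGA1, a membrane protein gene of the nervous system (-1.26), GHRHR, the receptor gene for growth hormone-releasing hormone (-1.17), and DSE (-1.05). The DSE end peak, chr6:116445080-116445580, had 3.62, 4.26 and 5.24 CPM in GFP low cells, against 8.82, 9.73 and 8.91 CPM in GFP high cells, so DSE was lower both at its internal start and at this end. Only 4 of the 13494 gene-end peaks passed the fold and the count minimum at all 3 times, those of ARSJ, MDGA1, PHF24 and SOAT2.

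The course of the members over time is described next from the values the rule used, with no test. The log2 difference was lowest at 24 h for 399 members (61.6%), at 48 h for 118 (18.2%) and at 72 h for 131 (20.2%). Among all distal peaks that reached the count minimum, these shares were 43.1, 25.8 and 31.2%. It went up at each later time for 198 members (30.6%, against 18.2% of all distal peaks). It went down at each later time for 48 (7.41%, against 15.0%). A lower value is a wider gap between GFP levels in the members, but a narrower one in distal peaks above 0, so these shares are not like for like. The median log2 change at 72 h over 24 h was 0.04 in GFP low cells and -0.14 in GFP high cells, beside 0.00 and -0.03 for the other distal peaks. GFP low levels were higher at 72 than at 24 h in 348 members (53.7%), and GFP high levels in 221 (34.1%).

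The slope with time over both GFP levels is a measure that the rule did not use, although it comes from the same 6 libraries. It was tested with edgeR's quasi-likelihood fit (log2 slope per 24 h, GFP level as a term, Benjamini-Hochberg over all 71318 peaks). The fit had no term for a slope that differs between GFP levels, so a call does not show that both changed alike. The shares of members called are a description, since these libraries also chose the members. Of all peaks 0.903% rose and 1.83% fell with time, and of the members 11 (1.70%) rose and 33 (5.09%) fell. The other distal peaks gave 1.15 and 2.27%. The slope is weighted to the higher counts of the GFP high libraries. Without the 72 h libraries, in a fit on fewer libraries, edgeR called 0 members (76 at an unadjusted p under 0.05), and 43 of the 44 kept the sign of their slope. Without the 24 h libraries it called 12, 3 of them among the 44, and 44 of the 44 kept their sign. All V numbers mattered too: without V0, V1 or V2 the count was 27, 22 and 26. DESeq2 called 21 members, all among the 44.

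Among the risers, the peak inside NPAT, which codes for an activator of histone genes in S phase, at chr11:108174418-108174918, had 3.40, 5.08 and 7.49 CPM in GFP low cells at 24, 48 and 72 h, against 13.0, 15.5 and 20.3 CPM in GFP high cells. Both GFP levels were higher at each later time, with a slope of 0.43 ± 0.08 (SE, edgeR adjusted p = 0.00299). The peak inside PGPEP1L, a pyroglutamyl peptidase-like gene, had 2.17, 2.98 and 4.57 CPM in GFP low cells, against 5.46, 6.98 and 10 CPM in GFP high cells (slope 0.49 ± 0.10, edgeR adjusted p = 0.0058). The peak inside ICA1, which codes for an islet autoantigen, had 1.92, 3.37 and 4.16 CPM in GFP low cells, against 6.33, 8.27 and 11.4 CPM in GFP high cells. Openness went up with time in all of these while the gap between GFP levels stayed past the fold, as the rule requires. Among the fallers, the peak 9.13 kb outside ADGRG7, an adhesion receptor gene, had 5.10, 3.66 and 2.38 CPM in GFP low cells, against 15.5, 9.35 and 6.28 CPM in GFP high cells (slope -0.61 ± 0.09, edgeR adjusted p = 0.000603). The peak inside GRIP1, a gene for a glutamate receptor scaffold, had 4.52, 3.83 and 1.91 CPM in GFP low cells, against 12, 8.27 and 5.07 CPM in GFP high cells. The peak 6.71 kb outside KHDC1L had 13.4, 10.9 and 8.46 CPM in GFP low cells, against 32.5, 22.2 and 17.7 CPM in GFP high cells. Each of these was lowest at 72 h at both GFP levels, and none of the 6 calls held without the 72 h libraries (edgeR adjusted p of 0.233 to 0.999), although each kept its sign. The slopes without them were 0.40 for NPAT, 0.41 for PGPEP1L, 0.57 for ICA1, -0.62 for ADGRG7, -0.40 for GRIP1 and -0.43 for KHDC1L. Without the 24 h libraries those of PGPEP1L, ICA1, ADGRG7 and KHDC1L were lost as well (edgeR adjusted p = 0.0561, 0.216, 0.0656 and 0.135), without V1 that of PGPEP1L (0.0989) and without V2 that of ICA1 (0.0864). The DOCK8 peak described above also fell with time, with a slope of -0.32 ± 0.08 (edgeR adjusted p = 0.0215).

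**Figure D5:**
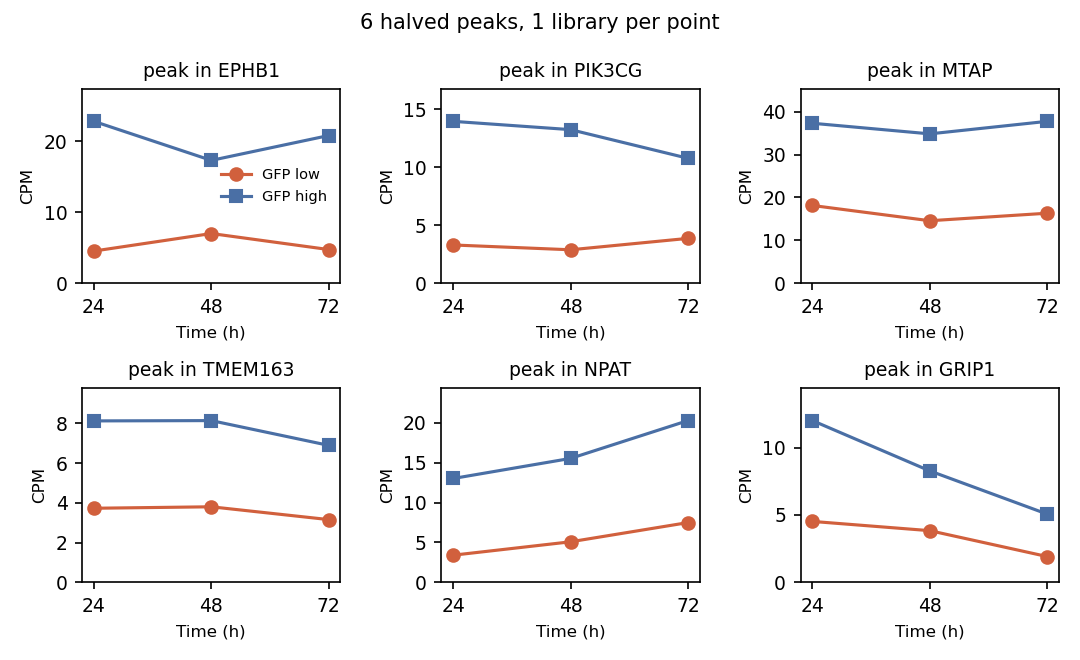
Accessibility (CPM) of 6 members at 24, 48 and 72 h, with 1 library per point, GFP low as circles and GFP high as squares. The peaks lie inside EPHB1, PIK3CG, MTAP, TMEM163, NPAT and GRIP1. As the rule requires, the GFP low line lies below the GFP high line at each time. Both lines go up in NPAT and down in GRIP1.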

How the data were processed

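Omni-ATAC-seq counts for 18 columns over 71318 peaks were deposited by the authors as whole-number counts per peak, not normalised. Per the submitters' processing notes, the tools were BWA, FastQC, R 4.2.1 and deepTools, on hg38. How duplicates were handled, how peaks were called and whether reads were shifted are steps not given in the sources used here, and duplicates that were kept would add to the noise of each count. The 3 columns of a GFP level and time were summed to 1 library. GFP level and time tests used edgeR 4.0.16 (R 4.3.3) with TMM scaling and a robust quasi-likelihood fit on the 6 libraries, with 2 residual degrees of freedom for GFP level and 3 for the slope with time, so p-values rest largely on spread borrowed from other peaks (22.6 and 21.4 prior degrees of freedom). Tested on simulated data for the slope (71318 peaks), the fit found 42 of 100 peaks with a 1.5-fold change, 96 of 100 with a 2-fold change and 9 that had none. Genes were 19962 RefSeq protein-coding genes after 94 readthrough genes were left out, and the table gives no strand, so exons, introns and UTRs were not separated.

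The members, the 13 gene lists and the rules were chosen with earlier results of these data known. Named peaks were the 8 lowest mean log2 differences, the 6 most open in GFP high cells, the 4 smallest and 4 largest ranges over times, all members of the 5 genes with most members (ties by share, then name) and their gene-end peaks, up to 3 members per list, 3 peaks on each side of the threshold and the 4 smallest p of each direction for time. The text names some of these, and 1 of the 8 lowest is not reported here. Alternatives covered DESeq2 1.42.0, other scalings, CPM added, minimums, thresholds, columns or times left out and V numbers as a replicate block.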

Additional observations from a re-analysis of the deposited data

Results flagged for a closer look

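The median log2 change of the 648 members at 72 h over 24 h was 0.045 in GFP low cells and -0.139 in GFP high cells. It was flagged because these medians had opposite signs. The GFP low median was small beside its quartiles of -0.22 and 0.31. In GFP high cells the median was -0.147 at 48 over 24 h and -0.018 at 72 over 48 h. With 1 library per GFP level and time the difference between the GFP levels was not tested, and it comes from values that the rule for the members used. The same signs were found with TMM scaling (0.046 in GFP low and -0.130 in GFP high cells), with median-ratio scaling (0.059 and -0.129 in the same order) and with loess scaling (0.060 and -0.101).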

How the results depend on the processing

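The number of members was 346 with loess scaling on abundance (342 of them among the 648), 302 with 1 CPM added, 278 with a mean count of at least 60, 1895 at a threshold of -0.8 and 197 at -1.2. It stayed within 1.5 times of 648 under the other settings run (569 to 879). With V numbers read as time 879 peaks passed, 508 of them among the 648, and with a V number left out 642 to 673 passed, 437 to 466 of them among the 648, so membership near the threshold depends on the columns. The median of gene-end peaks of genes that contain a member was 0.170 with TMM and 0.055 with loess scaling. The median of neighbours within 10 kb was -0.468 to -0.439 with a V number left out. The share with another member within 50 kb was 12.4% with loess scaling and 10.7% at a threshold of -1.2. Members that changed with time came to 120 with the 18 columns and a replicate block by V number, 126 with the 18 columns and no block, 21 with DESeq2 and 0 to 71 with a time or V number left out. V numbers did not pair the columns (correlations of same-numbered columns -0.005 to 0.017), so the block values are a description. The cause of these shifts was not tested. The count lower in GFP low cells (12810 to 20954) and the share inside genes kept their size under the settings run. Of values of single peaks, 397 mean differences moved by less than their SD over times and 99 by more, and 94 slopes kept their call and 18 lost it, with no sign turned. Scalings shifted the median of all peaks by 0.008 to 0.048 (log2). Depth limits single times: at 2 to 5 CPM a counting interval spans about 1 log2 unit.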
